A study of Mus musculus with 2 samples.

Results

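Lhx1 and Lhx5 are 2 paralogous LIM homeobox genes, and the open chromatin around them was described in neural tube of mouse embryos. The rule takes the members by name and uses no measured value, and they are 2 of the 21853 protein-coding genes of the GENCODE vM21 annotation whose transcription start sites (TSSs) were placed on the mm10 build. Lhx1 (ENSMUSG00000018698.15) lies at chr11:84518284-84525535 on the minus strand and has 3 annotated TSSs. Lhx5 (ENSMUSG00000029595.9) lies at chr5:120431699-120441223 on the plus strand and has 1. Positions below are given from the most upstream TSS of each gene, called the main TSS, with negative values upstream.

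Both genes encode transcription factors with a pair of LIM domains, which bind other proteins, and a homeodomain, which binds DNA. LIM homeodomain proteins act in complexes held together by the adaptor Ldb1, and the combination of members in a neuron helps to set its identity. In the developing spinal cord Lhx1 and Lhx5 are known from several classes of dorsal and ventral interneurons, where they act together with Pax2 in inhibitory neurons. Lhx1 is also known from motor neurons that project to dorsal limb muscle, from the head organizer and from the nephric duct, the precursor of the kidney's collecting system.

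Chromatin was profiled by DNase-seq, in which the enzyme DNase I cuts loosely packed DNA and the cut ends are sequenced. The labels describe 1 group, neural tube of healthy B6NCrl embryos aged 11.5 days with males and females pooled, as 2 biological replicates that carry the same donor label. No treatment, mutant or second tissue is part of the series, so no test between groups was possible and each value is given per library, with a mean and SD over n = 2 where a summary is used. The labels name 1 more sequencer model for replicate 2 than for replicate 1. In these whole-tissue samples a region open in few cells and a region weakly open in many cells cannot be told apart, and no RNA was measured.

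The authors' lists held 199653 peaks in replicate 1 and 154324 in replicate 2, and 162801 and 132619 hotspots. A peak is a window of 150 bp with a whole-number score that neither the labels nor the files explain, so it was used only as a percentile within its own list. A hotspot is an open region of variable length, 52 to 7418 bp at these genes. Its deposited −log10 q-value reaches 6 and then jumps to 100. Of all distal peaks, 48.1% in replicate 1 and 66.4% in replicate 2 overlapped a peak of the other library. Promoters of all 8 neural progenitor markers and all 8 neuronal markers held a peak in both libraries. Promoters of liver (4 genes) and myeloid (4 genes) markers held none in either, and 1 of 5 erythroid, 2 of 4 endothelial and 1 of 4 muscle markers held one in both. All 6 nephric markers, which are not neural markers either, held one in both. Over all protein-coding genes the share with a promoter peak was 68.5% in replicate 1 and 67.7% in replicate 2.

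The promoters of both paralogs were open in both libraries. Lhx1 had 6 promoter peaks in replicate 1 and 4 in replicate 2, a promoter peak being one that overlaps the 500 bp to either side of any TSS of the gene. Lhx5 had 2 in each library. The count of Lhx1 pools 3 TSSs and that of Lhx5 rests on 1. At only the TSS of the transcript with the longest coding sequence, Lhx1 had 3 promoter peaks in each library. Of all protein-coding genes, 68.5% in replicate 1 and 67.7% in replicate 2 had at least 1 promoter peak, and 37.9% and 36.0% had at least 2, so an open promoter alone did not set the pair apart.

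The main TSS of Lhx1 held the strongest peak of either locus. Its window, chr11:84525516-84525665, was placed at the same bases in both libraries, with a score of 132 in replicate 1 and 108 in replicate 2, at percentiles 96.9 and 94.9 of the lists. It spans the TSS and the 125 bp to the start of Lhx1os, a long non-coding RNA transcribed the other way. Flanking promoter peaks were found in both libraries at chr11:84525036-84525245 (scores 101 and 54) in the 5′ UTR and at chr11:84525956-84526145 (scores 105 and 62) in an intron of Lhx1os. The internal TSS at chr11:84522711 had a peak in both libraries, with scores of 101 and 54. Downstream of the last TSS, at chr11:84522331, another 2 peaks centred in coding exons were found in replicate 1 only, with scores of 60 and 63. Another 2 open sites within 1 kb of a TSS but outside the promoter windows, in exon 1 and intron 1, were present in both libraries.

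The untranscribed part of that strongest peak and the peak upstream of the Lhx5 TSS are printed because they are the peaks nearest upstream of the main TSSs. The stronger promoter peak of Lhx5 lies in the 5′ UTR and is not printed. Both stretches are on the strand of the gene, 5′ to 3′, from the GRCm38 reference, and cover chr11:84525536-84525665 and chr5:120431376-120431525. Capitals mark matches to any of 16 consensus strings searched on both strands, here CCAAT (Nfy, read as ATTGG) in Lhx1 and GGGCGG (Sp and Klf factors) in Lhx5.
Lhx1 promoter: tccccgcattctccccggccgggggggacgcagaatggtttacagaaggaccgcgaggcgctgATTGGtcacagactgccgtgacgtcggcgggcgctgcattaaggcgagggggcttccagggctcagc
Lhx5 promoter: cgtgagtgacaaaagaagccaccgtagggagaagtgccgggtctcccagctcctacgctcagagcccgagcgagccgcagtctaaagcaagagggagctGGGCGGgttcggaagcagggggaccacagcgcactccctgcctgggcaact
The GC content of these stretches was 66.9% and 64.0%. GGGCGG was present in both promoter peaks of Lhx5 and in 0 of the 6 and 4 of Lhx1, against 42.3% and 45.2% of all promoter peaks. CCAAT was present in 2 promoter peaks of Lhx1 in each library and in 1 of Lhx5, against 20.5% and 19.97% of all. A match describes letters and not a bound site.

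The promoter peaks of Lhx5 were 2 windows placed at the same bases in both libraries. The one at chr5:120431376-120431525, upstream, scored 87 and 48, at percentiles 82.2 and 75.4. The one at chr5:120431816-120431965, in the 5′ UTR, scored 120 and 72, at percentiles 94.0 and 87.0. The long non-coding RNA Gm27199 starts 68 bp inside Lhx5 and is transcribed the other way, so both paralogs have an opposite-strand RNA start at the main TSS. Such a start lies within 1 kb of a TSS in 8.04% of protein-coding genes.

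The single hotspots that cover the main TSSs differed in width. At Lhx1 the covering hotspot was 7418 bp long in replicate 1 and 3220 bp in replicate 2, at percentiles 99.9 and 99.8 of hotspot length. At Lhx5 it was 2485 bp and 1940 bp, at length percentiles 98.4 and 98.4. All 4 covering hotspots carried the highest deposited value, 100, as did 37.1% and 31.9% of all hotspots. These widths depend on where the hotspots were divided. In replicate 1 the one at Lhx5 ended at chr5:120433102, the next began at chr5:120433160, and others followed with short gaps up to chr5:120441207. At Lhx1 a hotspot of 2279 bp ended at chr11:84520597, next to the covering one.

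**Figure D1:**
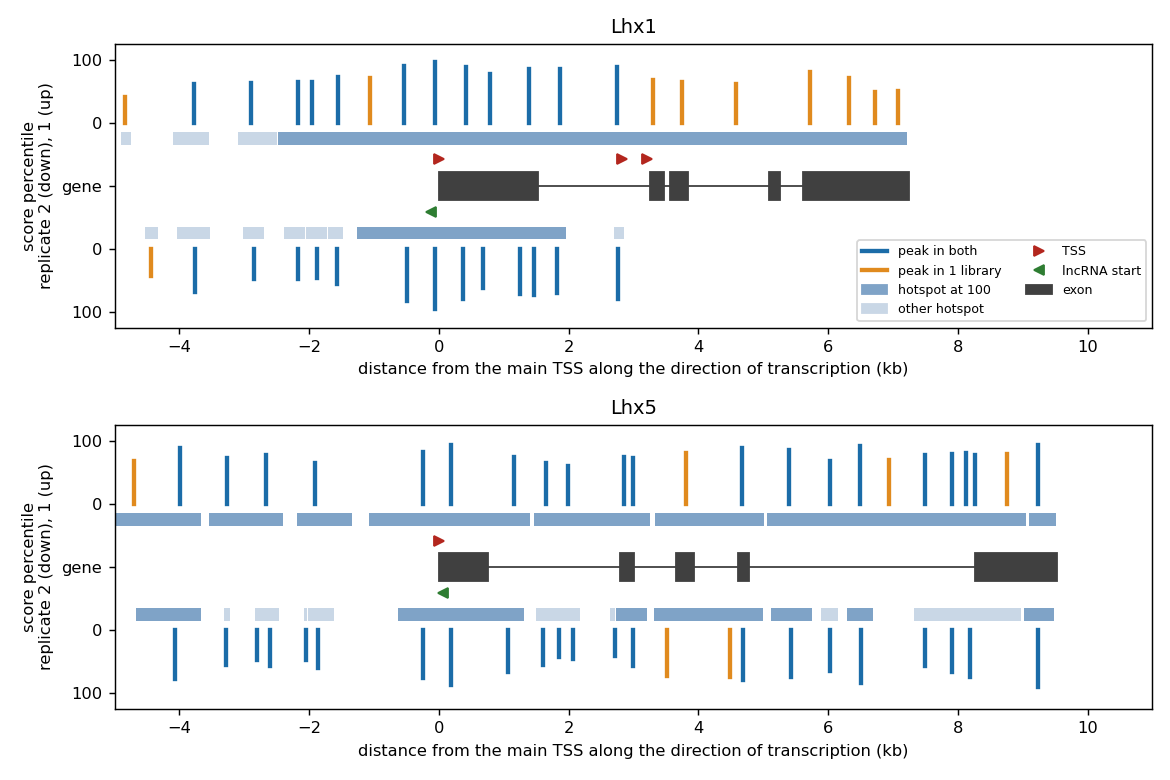
Peaks, hotspots and exons from 5 kb upstream to 11 kb downstream of the main TSS of Lhx1 (top) and Lhx5 (bottom), in kb along the direction of transcription. Bars rise (replicate 1) or fall (replicate 2) with the score percentile of each peak in its list, boxes are hotspots, and arrowheads mark TSSs and the starts of the opposite-strand RNAs. Past intron 1 of Lhx1, 7 peaks stand in replicate 1 and 0 in replicate 2, whereas Lhx5 has 14 and 11.

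The gene body of Lhx5 held more peaks than that of Lhx1, by a small margin in replicate 1 and a wide one in replicate 2. Counting every peak centred in the body, Lhx1 had 12 in replicate 1 and 6 in replicate 2, or 165 and 82.7 per 100 kb. Lhx5 had 18 and 17, or 189 and 178 per 100 kb. Of these, Lhx5 had 17 distal peaks in its 9.53 kb body in replicate 1 and 16 in replicate 2, a distal peak being one whose centre is over 1 kb away from any protein-coding TSS, counted for the gene with the closest TSS. Lhx1 had 6 and 2 in its 7.25 kb body, but its 3 TSSs leave only 3.87 kb of it open to a distal call, against 8.52 kb of Lhx5. Per 100 kb of that part there were 155 and 51.7 distal peaks at Lhx1 and 199 and 188 at Lhx5. Merged over libraries, 12 of 17 distal sites in the Lhx5 body were found in both libraries, against 1 of 6 in Lhx1. These counts leave out body sites closer to a TSS. At Lhx1 the promoter sites at chr11:84522696-84522865 and chr11:84525036-84525245 were found in both libraries, as were 2 sites outside the promoter windows. Another 2 promoter sites of Lhx1 were found in replicate 1 only. No such share was computed over all genes.

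The gap between libraries in Lhx1 lay past intron 1. From exon 2 to the end of the gene replicate 1 had 7 peaks, with scores of 63 in exon 2, 60 in exon 3, 56 in intron 3 and 84, 67, 44 and 45 in exon 5, and replicate 2 had 0. Over the same elements Lhx5 had 14 peaks in replicate 1 and 11 in replicate 2. Intron 4 of Lhx5, of 3484 bp, held 7 and 6 of them, and its strongest, at chr5:120438116-120438285, scored 111 and 64. The peaks of exon 4, merged at chr5:120436296-120436465, had scores of 102 and 54. Of all distal peaks, 4.36% in replicate 1 and 5.44% in replicate 2 were centred in an exon of a protein-coding transcript, against 5 of 42 and 2 of 42 for Lhx1 and 7 of 66 and 3 of 78 for Lhx5. Why the 3′ part of Lhx1 was called open in 1 library was not tested.

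The strongest distal peak found in 1 library only was an exon peak of replicate 1 in both paralogs. It lay at chr11:84519736-84519885 in coding sequence of exon 5 of Lhx1 and at chr5:120435436-120435585 in exon 3 of Lhx5, and each scored 84, at percentile 80.6. Exon 3 is 278 bp long in both genes and carries the start of the homeobox, and it had a peak in replicate 1 alone in both, with scores of 60 in Lhx1 and 84 in Lhx5. The Lhx5 window nevertheless lay inside a hotspot of replicate 2 with the value 100, at chr5:120435017-120436692, and the Lhx1 window overlapped no hotspot of replicate 2. The 2 windows matched each other over 128 bases without a gap, with 102 identical bases, and the aligned stretches, chr11:84521734-84521861 and chr5:120435458-120435585, are shown on the coding strand with the 26 differing bases in capitals.
Lhx1 exon 3: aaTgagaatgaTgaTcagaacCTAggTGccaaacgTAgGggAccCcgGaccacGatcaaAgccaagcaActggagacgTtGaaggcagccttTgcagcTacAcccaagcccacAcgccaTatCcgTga
Lhx5 exon 3: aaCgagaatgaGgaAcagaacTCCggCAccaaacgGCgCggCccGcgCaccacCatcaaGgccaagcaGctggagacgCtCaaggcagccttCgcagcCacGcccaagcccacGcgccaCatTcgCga
Exon 2 gave the other coding match, 82.0% identical over 128 bases, between a peak of Lhx1 found only in replicate 1 and a site of Lhx5 found in both libraries. The proteins translated from the annotated coding sequences have 406 and 402 residues and share 307 of 398 aligned residues, or 77.1%. Searching all 63 open sites of Lhx1 against all 93 of Lhx5 gave 5 matches at an E-value of at most 0.001. Of these, 2 were the coding pairs, and the 3 outside genes were 22 to 56 bases long.

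Distal peaks were many at both genes and more at Lhx5. Lhx1 had 42 in each library and Lhx5 had 66 in replicate 1 and 78 in replicate 2 (72 ± 8.49, SD, n = 2). The median gene had 3 and 2. Only 3.02% and 1.51% of genes had at least as many distal peaks as Lhx1, and 1.02% and 0.215% at least as many as Lhx5. The territory of a gene, the stretch of genome for which its TSSs are the closest ones, was 154.6 kb for Lhx1 and 175.4 kb for Lhx5, against a median of 46.4 kb.

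Density allows for the territory. Lhx1 had 27.2 distal peaks per 100 kb in both libraries, reached or exceeded by 3.90% of genes in replicate 1 and 3.46% in replicate 2. Lhx5 had 37.6 and 44.5, reached or exceeded by 1.85% and 1.20%. The medians over genes were 5.33 and 3.53. Lhx5 exceeded Lhx1 by 10.5 per 100 kb in replicate 1 and 17.3 in replicate 2 (13.9 ± 4.84, SD, n = 2), and the values of the paralogs did not overlap between libraries. They are 2 genes and not replicates, so this difference was not tested. When TSSs of all annotated genes, long non-coding RNAs included, bounded the territories, the counts fell to 6 and 2 for Lhx1 and 19 and 18 for Lhx5, and the mean difference turned to -8.14 per 100 kb, with -32.6 in replicate 1 and 16.3 in replicate 2.

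Hotspots gave the same order. They covered 24.7 kb and 15.4 kb of the Lhx1 territory, or 16.0% and 9.97%, and 33.6 kb and 29.7 kb of the Lhx5 territory, or 19.1% and 17.0%. Shares of at least the Lhx1 value were found in 7.86% and 11.3% of genes, and of at least the Lhx5 value in 5.76% and 4.71%. The median gene had 3.91% and 2.53% of its territory in hotspots.

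**Figure D2:**
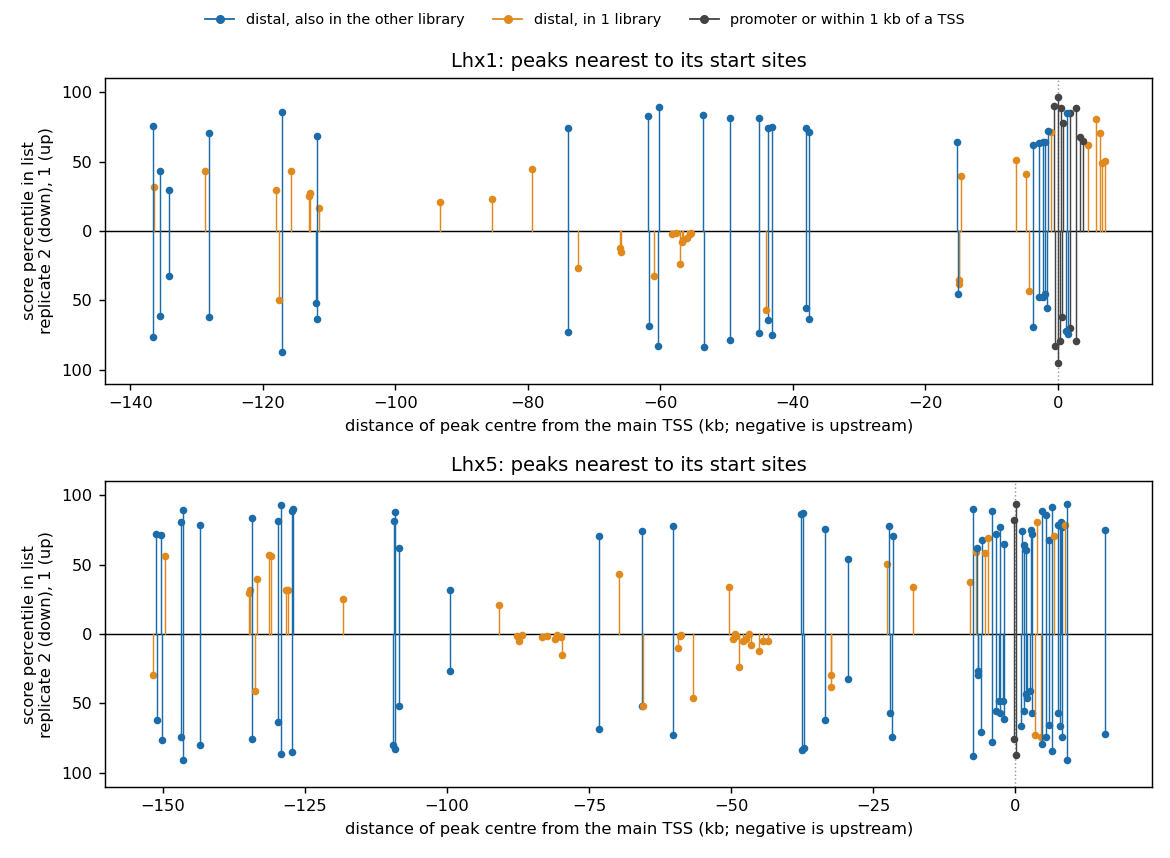
Every peak nearest to Lhx1 (top) and Lhx5 (bottom), by the distance of its centre from the main TSS in kb (horizontal; upstream to the left) and its score percentile within its list (vertical; replicate 1 upward, replicate 2 downward). Tall peaks mostly pair up between libraries, and low peaks of replicate 2 without a partner sit in clumps at 55.4 to 58.3 kb upstream of Lhx1 and at 43.5 to 49.7 and 79.7 to 87.7 kb upstream of Lhx5.

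Most of each territory lies upstream of the gene, so most distal peaks had to lie there too. At Lhx1 36 of 42 and 40 of 42 distal peaks were upstream, in 147.0 kb, and 0 lay downstream, where Aatf, an apoptosis-antagonizing transcription factor gene, begins to be nearer after 0.357 kb. At Lhx5 48 of 66 and 61 of 78 were upstream, in 157.6 kb, and 1 in each library lay in the 8.31 kb downstream. Upstream density was 24.5 and 27.2 per 100 kb at Lhx1 and 30.5 and 38.7 at Lhx5. Over the whole gene bodies the density of distal peaks was 82.7 and 27.6 at Lhx1 and 178 and 168 at Lhx5. At Lhx1 in replicate 2 the body, with 2 distal peaks, was thus barely above the upstream stretch. The median distance from a TSS was 47.3 and 55.7 kb for Lhx1 and 25.96 and 46.6 kb for Lhx5. By annotation, 28 and 34 distal peaks of Lhx1 and 37 and 49 of Lhx5 were intergenic, and 8 and 6 against 12 and 13 lay only in a long non-coding RNA gene. Their median GC content was 56.7% and 55.3% at Lhx1 and 57.3% and 54.3% at Lhx5, against 50% and 52.7% for all distal peaks.

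Upstream sites found in both libraries were unevenly spaced, and sites of 1 library lay in most of the gaps between them. At Lhx1 no peak in either library lay between 15.2 kb and 37.5 kb upstream. A series of 10 sites found in both libraries then ran from 37.5 kb to 73.96 kb, followed by 6 from 111.9 kb to 136.6 kb. Between those series replicate 1 alone had sites at 79.4, 85.4 and 93.2 kb. At Lhx5 the sites found in both libraries were 7 from 2.0 kb to 7.4 kb inside Gm27199, 6 from 21.6 kb to 37.6 kb, 4 from 60.3 kb to 99.4 kb, 3 near 109 kb and 9 from 127.2 kb to 151.1 kb.

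Among distal sites, promoter peaks left out, those with the best mean score percentile over the libraries were far upstream of Lhx1 and at both ends of the Lhx5 locus. For Lhx1 they were chr11:84642536-84642785, 117.1 kb upstream, with scores of 94 and 72, chr11:84585716-84585905, 60.3 kb upstream, with 102 and 61, and chr11:84578956-84579125, 53.5 kb upstream, with 89 and 63. For Lhx5 the first was chr5:120440856-120441005, 9.2 kb downstream of the TSS in the 3′ UTR, with 118 and 86. The next were chr5:120285136-120285305, 146.5 kb upstream, with 104 and 87, and chr5:120302336-120302505, 129.3 kb upstream, with 115 and 70. Above the 90th percentile of score Lhx1 had 0 distal peaks in either library and Lhx5 had 5 and 2.

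The 150 bp windows of replicate 1 at the intergenic sites among these are printed on the strand of the gene, with matches to the consensus strings in capitals, to show what the leading candidate elements hold. They cover chr11:84642636-84642785, chr11:84585716-84585865, chr11:84578976-84579125, chr5:120285136-120285285 and chr5:120302356-120302505.
Lhx1 at 117.1 kb: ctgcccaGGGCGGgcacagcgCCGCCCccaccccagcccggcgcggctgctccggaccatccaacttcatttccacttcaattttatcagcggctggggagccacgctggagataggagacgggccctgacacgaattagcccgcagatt
Lhx1 at 60.3 kb: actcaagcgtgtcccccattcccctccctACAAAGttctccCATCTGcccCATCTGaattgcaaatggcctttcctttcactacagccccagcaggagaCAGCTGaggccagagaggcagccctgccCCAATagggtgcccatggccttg
Lhx1 at 53.5 kb: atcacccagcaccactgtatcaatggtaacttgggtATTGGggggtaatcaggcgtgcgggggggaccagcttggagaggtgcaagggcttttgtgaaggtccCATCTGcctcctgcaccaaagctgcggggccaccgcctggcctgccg
Lhx5 at 146.5 kb: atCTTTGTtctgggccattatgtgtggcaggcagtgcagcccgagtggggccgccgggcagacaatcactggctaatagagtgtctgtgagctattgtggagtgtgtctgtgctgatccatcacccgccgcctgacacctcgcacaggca
Lhx5 at 129.3 kb: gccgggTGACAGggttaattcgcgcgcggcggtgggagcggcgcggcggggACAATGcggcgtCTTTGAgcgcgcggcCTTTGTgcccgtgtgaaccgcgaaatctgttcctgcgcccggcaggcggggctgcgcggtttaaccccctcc
The Lhx1 window at 117.1 kb holds GGGCGG 2 times. The one at 60.3 kb holds both E-boxes searched, CAGCTG 1 time and CATCTG 2 times, with ACAAAG (Sox factors) and CCAAT, and the one at 53.5 kb holds CATCTG and CCAAT. The Lhx5 window at 146.5 kb holds ACAAAG, and that at 129.3 kb holds ACAATG (also bound by Sox factors), TGACAG (Meis), CTTTGA (Tcf and Lef) and again ACAAAG.

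The E-box CAGCTG, bound by basic helix-loop-helix factors, was singled out after its values were seen. It occurred in 13 of 42 distal peaks of Lhx1 in replicate 1 and 11 of 42 in replicate 2 (31.0% and 26.2%). At Lhx5 it occurred in 9 of 66 and 9 of 78 (13.6% and 11.5%), and over all distal peaks in 15.7% and 17.1%. At Lhx1 the matches sat mostly in sites found in both libraries: 11 of 23 peaks of replicate 1 that had a partner held one (47.8%), against 2 of 19 without a partner (10.5%). In replicate 2 the counts were 9 of 25 (36.0%) and 2 of 17 (11.8%). Over all genes 18.0% and 18.3% of distal peaks with a partner held it, and 13.6% and 14.8% of those without. At Lhx5 5 of 45 (11.1%) and 7 of 47 (14.9%) with a partner held it, and 4 of 21 (19.0%) and 2 of 31 (6.45%) without. Another 2 shared sites of Lhx1, the highest ranked of those with the E-box in both windows, are printed for comparison, chr11:84574976-84575125, 49.5 kb upstream, and chr11:84570556-84570705, 45.1 kb upstream.
Lhx1 at 49.5 kb: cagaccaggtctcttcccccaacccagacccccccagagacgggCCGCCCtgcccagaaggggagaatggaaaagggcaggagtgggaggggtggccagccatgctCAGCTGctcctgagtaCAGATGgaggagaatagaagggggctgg
Lhx1 at 45.1 kb: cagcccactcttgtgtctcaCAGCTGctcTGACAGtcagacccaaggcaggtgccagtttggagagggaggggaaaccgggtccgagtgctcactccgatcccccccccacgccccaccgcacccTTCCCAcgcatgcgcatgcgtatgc
Among the other strings, CATCTG was found in 8 and 10 peaks of Lhx1 (19.0% and 23.8%) and 6 and 8 of Lhx5 (9.09% and 10.3%), against 17.1% and 16.6% of all distal peaks. The homeodomain string TAATTA was found in 2 and 1 peaks of Lhx1 and 6 and 2 of Lhx5, against 3.84% and 2.53% of all. The Sox string ACAATG was in 5 and 3 peaks of Lhx1 and 3 and 1 of Lhx5, against 9.54% and 7.95%. CCAAT was in 15 of 42 Lhx1 peaks in replicate 1 (35.7%) but 6 of 42 in replicate 2 (14.3%), against 18.1% and 16.5%. The Ctcf string was in 0 and 0 peaks of Lhx1 and 1 and 1 of Lhx5, against 1.78% and 2.07%. The peaks of one gene overlap between libraries, so the libraries are not independent looks at these sequences.

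The share of distal peaks with a partner, an overlapping peak in the other library, was above that of all distal peaks in replicate 1 (48.1%) and below it in replicate 2 (66.4%) at both genes. For Lhx1 23 of 42 peaks of replicate 1 (54.8%) and 25 of 42 of replicate 2 (59.5%) had a partner, a mean of 57.1% ± 3.37 (SD, n = 2). For Lhx5 45 of 66 (68.2%) and 47 of 78 (60.3%) had one, a mean of 64.2% ± 5.60 (SD, n = 2). The shares of both libraries count the same overlaps from either side, so these SDs are not spreads over independent replicates. Partners were common among strong peaks, as over the whole genome. Above the 60th percentile of score, 21 of 25 and 17 of 17 distal peaks of Lhx1 and 43 of 47 and 30 of 32 of Lhx5 had a partner, against 87.8% and 93.8% of all distal peaks in that range. At or below the 20th percentile Lhx1 had 1 and 9 distal peaks and Lhx5 had 0 and 22, and none of these 32 had a partner, against 10.9% and 20.7% of all distal peaks in that range that did.

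The raw count of distal peaks in replicate 2 was not below that in replicate 1 at these genes, although hotspot cover was lower there and Lhx1 had fewer promoter peaks. Over all genes replicate 2 had 0.739 times as many distal peaks as replicate 1, but the ratio was 1.00 at Lhx1 and 1.18 at Lhx5. Among 1838 genes with a mean of at least 20 distal peaks the median ratio was 0.711. At least as many peaks in replicate 2 as in replicate 1 were found in 16.6% of these genes, and a ratio of at least that of Lhx5 in 7.29%.

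Low-scoring peaks of replicate 2 account for part of these counts. Among the lowest-scoring 15% of each list, with scores up to 26 in replicate 1 and 12 in replicate 2, Lhx1 had 0 and 9 distal peaks and Lhx5 had 0 and 22. In replicate 2 these were 21.4% of the distal peaks of Lhx1 and 28.2% of those of Lhx5, against 18.0% over all genes, and in replicate 1 the share over all genes was 16.5%. At least as many such peaks of replicate 2 as Lhx1 and Lhx5 were found in 2.01% and 0.261% of genes, a count that also follows the total number of peaks of a gene. Of the 31, 26 stood in 3 runs of 5 or more with gaps of at most 5 kb. Genome-wide such runs held 19.6% of the low-scoring peaks of replicate 2, distal or not, and 3.64% of those of replicate 1. One run of 7 peaks with scores of 4 to 9 spanned 3.05 kb upstream of Lhx1, and runs of 9 peaks (3 to 12) and 10 peaks (2 to 11) spanned 8.17 kb and 6.35 kb upstream of Lhx5. Replicate 1 had 0 peaks and 0 hotspots in all 3 stretches. Of these 26 peaks 13 lay in hotspots of replicate 2 with the highest value of 100. Counting all low-scoring distal peaks of replicate 2, in runs or not, 6 of 9 at Lhx1 and 9 of 22 at Lhx5 did. Over all genes the share was 9.51% in replicate 2 and 2.72% in replicate 1. Genome-wide, runs of this kind numbered 168 in replicate 1 and 402 in replicate 2. Without the lowest-scoring 15% of each list Lhx1 had 42 and 33 distal peaks and Lhx5 had 66 and 56, ratios of 0.786 and 0.848 beside a median of 0.724, and 26.0% of 1444 genes had a ratio of at least that of Lhx5. What gave rise to these runs was not tested.

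**Figure D3:**
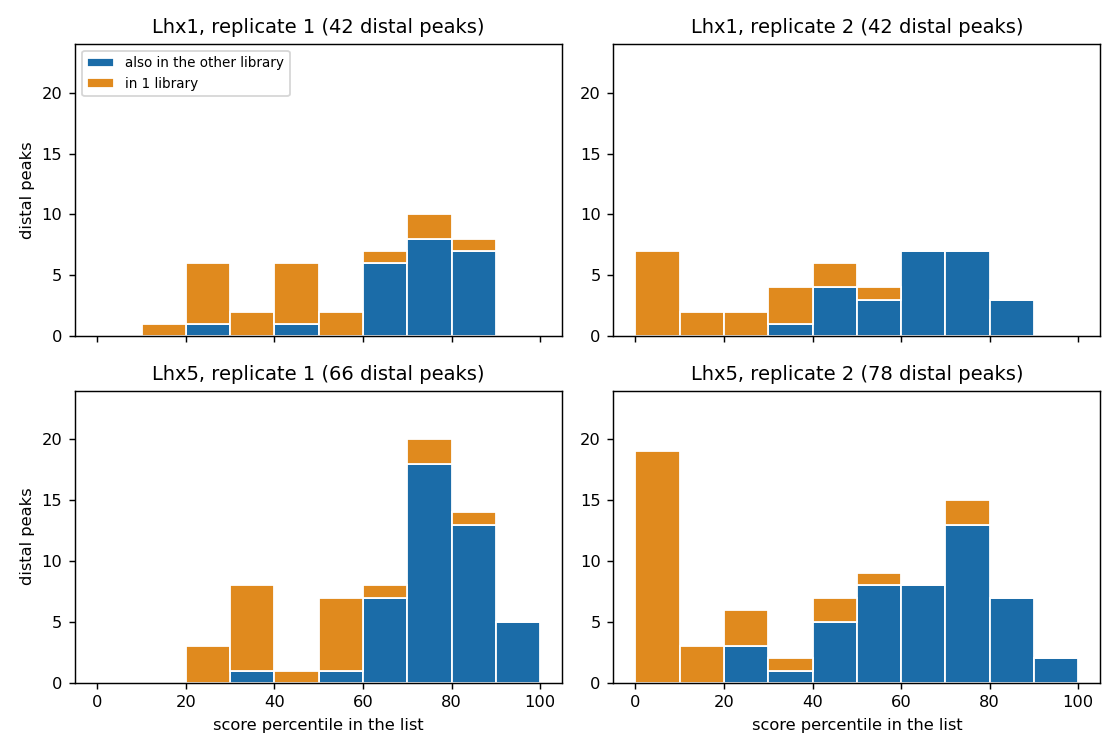
Number of distal peaks (vertical) by score percentile within the list (horizontal, steps of 10), for Lhx1 (top) and Lhx5 (bottom) in replicate 1 (left) and replicate 2 (right), with peaks that have a partner in the other library in blue and those without in orange. The lowest step is empty in replicate 1 and holds peaks without a partner in replicate 2, and most peaks above the 60th percentile have a partner.

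Among the 12 LIM homeodomain genes all promoters held a peak in both libraries. By mean density over the libraries Lhx5 came first, with 41.0 ± 4.84 distal peaks per 100 kb, and Lhx1 had rank 5, with 27.2 ± 0 (SD, n = 2). Lhx3, a motor neuron and pituitary factor, came between at 37.4 ± 9.49, and Lmx1b and Lhx4 at 29.2 ± 6.09 and 28.4 ± 0.535. The values of Lhx5 and Lhx3 overlap between libraries, as do those of Lhx1, Lmx1b and Lhx6. In replicate 1 Lhx3 came first, with 44.1 against 37.6 for Lhx5, and in replicate 2 Lhx5 did, with 44.5 against 30.7. Without the lowest-scoring 15% of each list Lhx5 had 37.6 and 31.9 per 100 kb, and the order of the 12 genes was not recomputed for that setting. By number, Isl1, needed for motor neurons, had 78 and 55 distal peaks, Lmx1b, a roof plate and dorsal neuron factor, 70 and 52, and Lmx1a 51 and 53. The other 10 genes had medians of 28.5 and 21 distal peaks and 22.5 and 13.7 per 100 kb. Replicate 2 had fewer distal peaks than replicate 1 at 8 of the 12 genes, more at Lhx5, Lhx4 and Lmx1a, and as many at Lhx1.

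**Figure D4:**
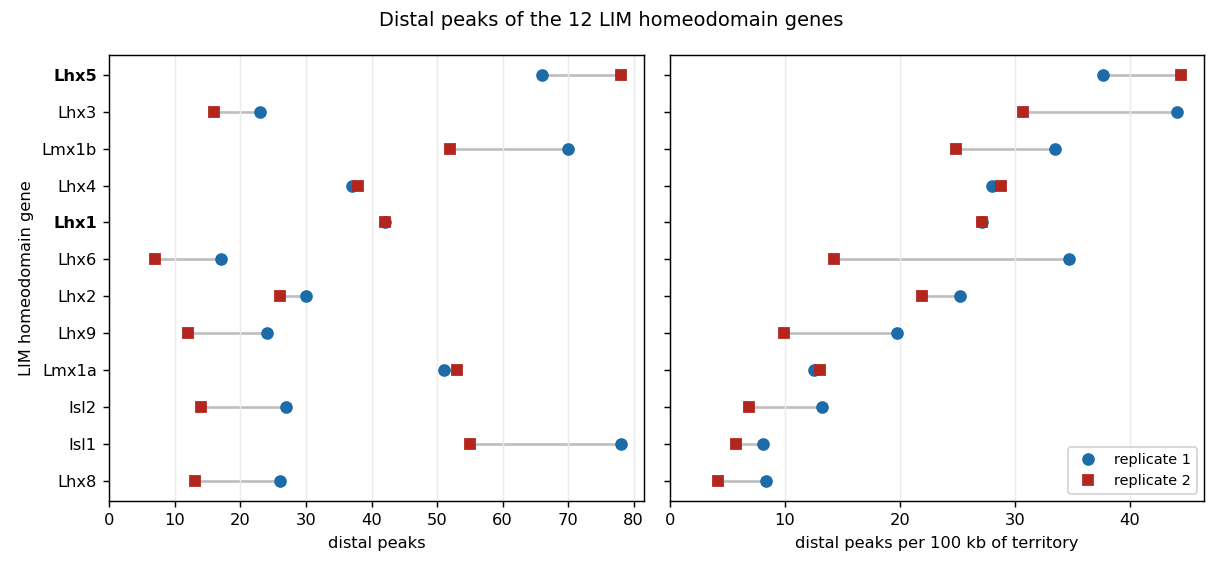
Distal peaks (left) and distal peaks per 100 kb of territory (right) of the 12 LIM homeodomain genes, ordered by mean density, with a circle for replicate 1, a square for replicate 2 and a line joining them. Lhx5 has the highest mean density, although Lhx3 is ahead of it in replicate 1. The square of Lhx5 lies to the right of its circle, while the symbols of Lhx1 coincide at 42 peaks.

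Partners and neighbours in the network were open to different degrees. The 10 LIM cofactor and LIM-only genes, which include Ldb1, the adaptor of LIM homeodomain proteins, all had a promoter peak in both libraries and medians of 14.5 and 8 distal peaks and 10.03 and 5.51 per 100 kb. Ldb1 itself had 14 and 8. All 18 genes of interneuron classes that share cells with the pair had one too, with medians of 34 and 25 distal peaks and 24.3 and 20.7 per 100 kb. Among them Pax2, a determinant of inhibitory interneurons, had 77 and 66, Lbx1, a selector of dorsal interneurons, 46 and 39, and Ptf1a, which directs inhibitory fate in the dorsal horn, 37 and 28. The 8 genes of the nephric lineage, listed because Lhx1 is also active there, all had an open promoter, with medians of 29 and 27 distal peaks but 9.27 and 7.41 per 100 kb. Several of those genes have neural roles as well, and the part of nephric cells in the Lhx1 peaks was not tested.

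Likeness was measured over 11101 genes with a promoter peak in both libraries, as the Euclidean distance in log10 of the 2 densities and of territory length. Nearest to Lhx1 were Lhx4 (distance 0.0735, 37 and 38 distal peaks), Tcf20, Prdm16, Boc and Ostm1. Nearest to Lhx5 were Pax2 (distance 0.110), Cstad, Ier2, Snx11 and Gbx2. Lhx1 was the 16th nearest to Lhx5, and Lhx5 the 129th nearest to Lhx1. Each gene next to a member had fewer distal peaks than that member. Beside Lhx1, Aatf had 19 and 6 and Mrm1, a mitochondrial RNA methyltransferase gene, 35 and 23. Beside Lhx5, Rbm19, an RNA-binding protein gene, had 49 and 49 and Sdsl, a serine dehydratase-like gene, 5 and 5. Per 100 kb of territory Aatf had 15.7 and 4.96 and Mrm1 23.1 and 15.2. Rbm19 had 16.5 per 100 kb in both libraries, and Sdsl, with a territory of 25.1 kb, 19.9 in both. The Sdsl promoter had a peak in replicate 2 only.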

How the data were processed

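DNase-seq was analysed in 2 libraries of mouse neural tube, 1 group. Per the file headers and labels, the authors deposited peaks (with a score) and hotspots (with a −log10 q-value) for each library on mm10. Not given in the sources used here: aligner, caller and threshold. The depth is unknown because the deposited files hold no read counts, so no interval that needs it is given. The authors' peak score served only for percentiles (share of the list at or below it).

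Repeated rows (45 and 22) were removed. TSSs were those of protein-coding transcripts of protein-coding genes in GENCODE vM21 (21853 genes, 54361 TSSs). Overlap required 1 bp. Sites are peaks of both libraries merged where they overlap. Motif strings were searched on both strands of the 150 bp windows, and some can overlap each other. Sequences came from the GRCm38 assembly, by pysam 0.24.0, and matches between sites from blastn with a word size of 7. The counting code was tested on simulated peaks. The members and gene lists were chosen with earlier results of these data known. Named were the promoter peaks, the 3 shared distal sites with the best mean percentile, the strongest distal peak of 1 library, the 5 genes most alike and the adjacent genes. The lowest-scoring 15%, peaks in exons and the E-box were examined after the data were seen. Sequence in UTRs is not printed.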

Additional observations from a re-analysis of the deposited data

How the results depend on the processing

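With 2 libraries of 1 group the SD rests on 1 pair, and no test was possible. No paired analysis was possible because there is 1 group. Of 76 recomputed values of 9 results, 56 stayed within 1.5 times (counts) or 1 SD (other values), 19 moved further and 1 reversed. The 56 include entries that could not move. With 2 libraries each value lies within 1 SD of their mean, so leaving out a library could not move hotspot cover or the density difference. Promoter peaks of Lhx1 (mean 5) fell to 2.5 within 200 bp and to 3 at 1 TSS. With the higher-scoring 50% of each list distal peaks fell to 24 (Lhx1) and 47.5 (Lhx5) and the shares with a partner rose to 76.7% and 84.3%. TSSs of all annotated genes left 4 and 18.5 distal peaks, a share of 78.7% for Lhx5 and a density difference of -8.14 per 100 kb, because non-coding RNA starts then take most of both territories. Within 50 kb of a TSS there were 20 and 41.5 distal peaks and the difference was 26.5. An overlap of 75 bp gave shares of 47.6% and 50.3%, and hotspots of the other library gave 63.1% for Lhx1. Hotspots at the highest value covered 13.4 and 23.4 kb. Without the lowest-scoring 15%, added after seeing the data, the shares were 65.3% and 76.1%. Leaving out either library gave 4 to 6 promoter peaks for Lhx1 and 2 for Lhx5, 42 distal peaks for Lhx1 and 66 to 78 for Lhx5, 15.4 to 24.7 kb and 29.7 to 33.6 kb of hotspots, and a difference of 10.5 to 17.3. Shares with a partner need both libraries and have no such value. The limit of 1 SD used for these shares is not a spread over replicates, because both libraries count the same overlaps. With all transcripts of protein-coding genes, also added later, Lhx5 had 50 and 68 distal peaks.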

Other observations

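The main promoters were alike in GC content but differed in CpG ratio. Over the 500 bp to either side of the main TSS the GC content was 60.1% at Lhx1 and 59.9% at Lhx5, against a median of 54.8% over the TSSs compared. The ratio of observed to expected CpG was 0.840 and 0.723, at percentiles 85.4 and 69.7, against a median of 0.523. The internal TSSs of Lhx1 had ratios of 0.798 and 0.718. The 3 matches between open sites of the paralogs outside genes were 56, 44 and 22 bases long, with 76.8%, 81.8% and 90.9% identity. The first 2 involved the same Lhx1 site, 68.7% of which is soft-masked as repeat in the reference. In the last match the Lhx1 site had no soft-masked bases and the Lhx5 site had 20.4%.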
